A study of Mus musculus with 89 samples.

Results

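The genes described here carry glucose into the cell, break it down to pyruvate and bring the pyruvate to the mitochondrion: 34 genes chosen by symbol, found on 35 of the 54146 rows of the count table without spike-ins, because Aldoa has a second row with 8 to 32 counts. They were measured by RNA-seq in 20 libraries of mouse embryonic stem cells (ESCs), which form 4 states in each of 2 media. All libraries come from EKOiE cells, in which the endogenous Esrrb gene is knocked out and a Dox-inducible Flag-tagged Esrrb transgene is carried in its place. The states are EKOiE cells kept in Dox (1 µg/ml, named +E+N), EKOiE 2 days after Dox withdrawal (−E), EKOiE NrKO with Dox (−N) and EKOiE NrKO 2 days after Dox withdrawal (−E−N), where NrKO denotes cells with exon 4 of Nr5a2, coding for part of the domain that contacts DNA, disrupted on both alleles. FCS/LIF is serum medium with the cytokine LIF (2 libraries per state), and 2i/LIF is serum-free N2B27 medium with LIF, the MEK inhibitor PD0325901 and the GSK3 inhibitor CHIR99021 (3 libraries per state). NrKO cells are a separately derived line, so loss of Nr5a2 and descent of the line cannot be told apart, and neither can the medium and the culture batch it was grown in. Dox was present in all +E+N and −N libraries and absent from all −E and −E−N libraries. Loss of Esrrb and removal of the drug therefore cannot be told apart, and Esrrb withdrawal below stands for Dox withdrawal.

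Esrrb and Nr5a2 are orphan nuclear receptors that bind similar DNA sequences and act in the pluripotency network of ESCs. Glycolysis begins with glucose uptake by transporters of the Slc2a family, and glucose is then trapped by hexokinase, committed to breakdown by phosphofructokinase and turned in a chain of further reactions into pyruvate. Pyruvate is either reduced to lactate, which monocarboxylate transporters export, or carried into the mitochondrion by the Mpc1/Mpc2 carrier and oxidised by the pyruvate dehydrogenase complex, which the pyruvate dehydrogenase kinases (Pdk) switch off. ESCs use glycolysis heavily even in the presence of oxygen, and several steps are encoded by paralogues with different regulation.

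The members whose upstream sequence is given here are those around which the comparisons turn at separate steps: hexokinase 1, the platelet form of phosphofructokinase, a glucose transporter, an enolase and a pyruvate dehydrogenase kinase. Sequences are from RefSeq (GRCm38.p6, the assembly also called mm10), read 5′ to 3′ toward the gene in the 250 bases before the annotated start, with bases that lie in an annotated exon left out. Capitals mark ACGTG or GCGTG, the letters around which hypoxia-inducible factors bind, and AAGGTCA, on either strand. AAGGTCA is the form of the Esrrb and Nr5a2 core with the T that the study reports Esrrb to prefer. The form with C, which the study reports Nr5a2 to prefer, was searched only within the longer site TCAAGGNCA. The window of Hk1 given here holds none of the marked letters, and another start of Hk1 has GCGTG upstream.
Hk1, chr10:62379909-62380158, minus strand: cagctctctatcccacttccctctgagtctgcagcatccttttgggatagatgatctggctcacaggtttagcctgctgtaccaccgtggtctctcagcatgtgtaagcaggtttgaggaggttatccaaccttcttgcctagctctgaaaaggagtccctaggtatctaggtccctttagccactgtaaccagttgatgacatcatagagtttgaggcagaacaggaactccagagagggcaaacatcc
Pfkp, chr13:6648778-6649021, minus strand: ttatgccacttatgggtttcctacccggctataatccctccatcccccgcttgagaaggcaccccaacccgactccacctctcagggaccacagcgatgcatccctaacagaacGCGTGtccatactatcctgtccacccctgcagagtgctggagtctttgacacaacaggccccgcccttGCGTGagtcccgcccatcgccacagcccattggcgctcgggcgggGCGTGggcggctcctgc
Slc2a1, chr4:119108495-119108710, plus strand: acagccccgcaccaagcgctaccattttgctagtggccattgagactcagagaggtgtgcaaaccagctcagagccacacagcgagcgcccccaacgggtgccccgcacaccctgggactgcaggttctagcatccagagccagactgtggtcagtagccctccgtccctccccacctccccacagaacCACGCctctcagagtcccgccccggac
Eno1, chr4:150236458-150236707, plus strand: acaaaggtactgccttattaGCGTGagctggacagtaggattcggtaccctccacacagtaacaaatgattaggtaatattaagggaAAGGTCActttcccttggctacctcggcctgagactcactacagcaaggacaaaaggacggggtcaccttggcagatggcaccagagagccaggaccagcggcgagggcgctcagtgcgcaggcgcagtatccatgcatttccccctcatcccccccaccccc
Pdk1, chr2:71872974-71873223, plus strand: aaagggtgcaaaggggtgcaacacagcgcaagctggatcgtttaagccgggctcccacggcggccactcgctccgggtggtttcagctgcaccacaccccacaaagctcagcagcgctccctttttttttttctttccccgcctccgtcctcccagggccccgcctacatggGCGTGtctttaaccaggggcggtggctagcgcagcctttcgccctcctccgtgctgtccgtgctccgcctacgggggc

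RefSeq windows were found for 33 of the 34 members. The extended site TCAAGGNCA, which contains AAGGTCA where N is T, was in no member's upstream window, against 1.59% of the 27025 genes with a window. AAGGTCA was upstream of Pfkfb1 and Eno1, 6.06% of the members against 4.7% of all genes. ACGTG was upstream of 14 members (42.4%, against 18.5% of all genes) and GCGTG upstream of 22 (66.7%, against 30.9%), where both strands were searched and the 2 can overlap in a palindrome. A gene was counted when any of its windows held the letters, and the 33 members have 52 windows. Neither the number of windows per gene nor base composition was matched between members and all genes, so these shares do not show an enrichment. A match in these letters is a description of the window and not of binding.

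The libraries held between 36514172 and 45443379 counts for FCS/LIF, while those of 2i/LIF held 26653035 to 32526534. Levels are given as CPM (counts scaled to a common library size by TMM), for comparing libraries, and as TPM, which accounts for transcript length, for comparing genes. The Esrrb row, which can hold transgene and residual transcripts of the locus together, averaged 312 ± 57.7 CPM (SD, n = 2) in +E+N and 69.7 ± 6.44 in −E cells in FCS/LIF. In 2i/LIF it averaged 576 ± 52.9 (SD, n = 3) and 418 ± 33.2, a difference that was not called (log2 fold change −0.46 ± 0.16, SE; adjusted p = 0.116 in edgeR's quasi-likelihood fit, Benjamini-Hochberg adjusted), so the counts alone do not check the −E label there. The Nr5a2 row counts all exons and does not check the disruption. The 8 ESC markers summed to between 2270 and 6040 CPM, with a lower sum for −E−N than for +E+N in each medium (2270 to 2450 against 4380 to 4680 in FCS/LIF, 2340 to 3110 against 5770 to 6040 in 2i/LIF). The 4 trophectoderm markers summed to 50.2 to 60.9 CPM in +E+N and 191 to 265 in −E−N in FCS/LIF, and to 2.97 to 5.11 and 62.6 to 89.7 in 2i/LIF. The 4 primed epiblast markers went from 694 to 722 CPM to 857 to 931 in FCS/LIF and from 92.2 to 125 to 217 to 266 in 2i/LIF. Most of that sum was Dnmt3b (means of 617 and 771 CPM in FCS/LIF, 105 and 243 in 2i/LIF), while Otx2 of the same list was called lower in each medium (38.7 to 11.9 and 1.56 to 0.0348 CPM). Mesoderm and primitive endoderm lists were at or under 21.7 and 12.6 CPM in every library. In FCS/LIF the mesoderm sum was 3.37 to 4.31 CPM in +E+N and 9.97 to 10.6 in −E−N, and in 2i/LIF it overlapped. The primitive endoderm sum was 8.21 to 12.6 and 7.97 to 8.01 in FCS/LIF, and 2.38 to 4.46 and 7.82 to 10 in 2i/LIF. The neural sum rose from 151 to 157 to 248 to 274 in FCS/LIF and fell from 73.5 to 86 to 44.4 to 62.4 in 2i/LIF. The feeder fibroblast list ran from 74.1 to 250 and overlapped between these states in each medium. No marker list had a gene at 0 throughout a group. The part of these shifts in the results for the members was not tested, and in bulk RNA fewer cells of a type and less RNA per cell cannot be told apart.

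In 2i/LIF the libraries numbered 1 lay farther from numbers 2 and 3 than these did from each other in +E+N, −E and −N (chi-square per degree of freedom over genes 12.1 to 27.9, against 5.61 to 8.18). In −E−N it was number 3 that stood apart (23.6 and 29.4, against 9.55 between numbers 1 and 2). Number 1 was the lowest of the 3 libraries in every state for 11 of the 35 rows (Slc2a1, Slc2a3, Pfkl, Pfkp, Pfkfb3, Tpi1, Eno2, Slc16a3, Pdk1, Pdk2 and Pdk4), against 11% of the genes tested in 2i/LIF, and the highest for 2 (Eno3 and Pdha1), against 10.4%. Slc16a3, a lactate exporter, ran from 9.31 to 45.8 CPM over the 4 libraries numbered 1, from 33.7 to 102 over those numbered 2 and from 53.7 to 93.8 over those numbered 3. The 15 hypoxia response genes summed to 498 to 631, 607 to 984 and 778 to 986 CPM in the same order, and their part in the members' differences was not tested. Results in 2i/LIF are therefore given with and without the libraries numbered 1. Without −E−N library 3, −E−N against +E+N called 5 members in 2i/LIF, as with it, and 16.3% of all genes in place of 18.6%.

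**Figure D1:**
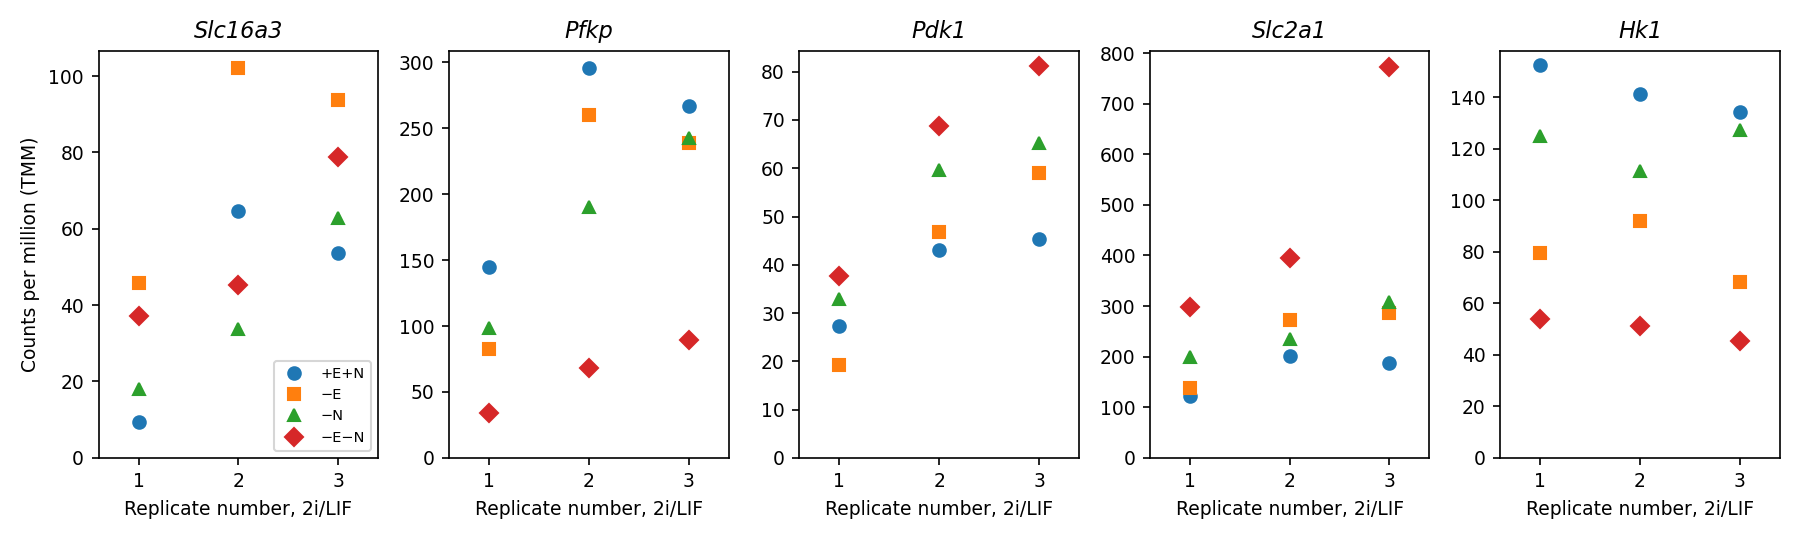
CPM of 5 members (one panel each, linear axes from 0) in the 12 2i/LIF libraries by replicate number, with a marker shape per state. Slc16a3, Pfkp, Pdk1 and Slc2a1 were lowest in the libraries numbered 1 in every state, whereas Hk1 separated by state, from 134 to 153 in +E+N down to 45.5 to 53.8 in −E−N.

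Taking the members' TPM together, they made up between 1.35% and 1.50% of all TPM in the FCS/LIF libraries and between 1.05% and 1.34% in the 2i/LIF libraries. Gapdh, Pkm, Eno1, Aldoa, Pgam1 and Pgk1, the enzymes of the later steps and the aldolase, held between 80.7% and 86.6% of the members' sum in every library. At the other end, 10 of the 35 rows averaged under 10 TPM, among them Pgam2 (0.94 to 4.03) and Pdk4 (0.08 to 1.34). Gapdh, often used as a reference transcript, ran from 4712 to 5408 CPM over all 20 libraries, with log2 fold changes between −0.09 and 0.07 in the comparisons made. None of these 6 abundant genes was called in −E, −N or −E−N against +E+N by the edgeR fit.

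A member was called when its adjusted p (edgeR's quasi-likelihood test, Benjamini-Hochberg over all genes tested) was under 0.01 and its fold change over 1.5. In FCS/LIF, −E against +E+N called 1 of 35 rows higher and 3 lower, where 3.23% of the 15636 genes tested were called higher and 2.53% lower. For −N the counts were 0 and 0, with 0.0767% and 0.0959% of all genes called, 4 rows at an unadjusted p under 0.05, and 0 calls by DESeq2 or limma. For −E−N, 2 rows were higher and 5 lower, against 12.4% and 6.4% of all genes. The median log2 fold change of the 35 rows was −0.12 for −E, 0.01 for −N cells and −0.20 for −E−N cells, where that of all genes was −0.0025, −0.012 and 0. In 2i/LIF 34 of the rows passed the filter on low counts, and 14355 genes were tested. Here −E called 0 members higher and 1 lower (0.439% and 1.11% of all genes), −N called 0 by edgeR, DESeq2 and limma (1.61% and 2.04% of all genes, with 5 rows at an unadjusted p under 0.05), and −E−N called 2 higher and 3 lower (9.06% and 9.56%). The members' medians were 0.07, 0.01 and 0.18 in the same order, beside 0.014, −0.0032 and 0.010 for all genes. Without the 2i/LIF libraries numbered 1 the counts became 0 for −E, 0 for −N and 9 for −E−N, with 1%, 2.54% and 18.4% of all genes called.

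**Figure D2:**
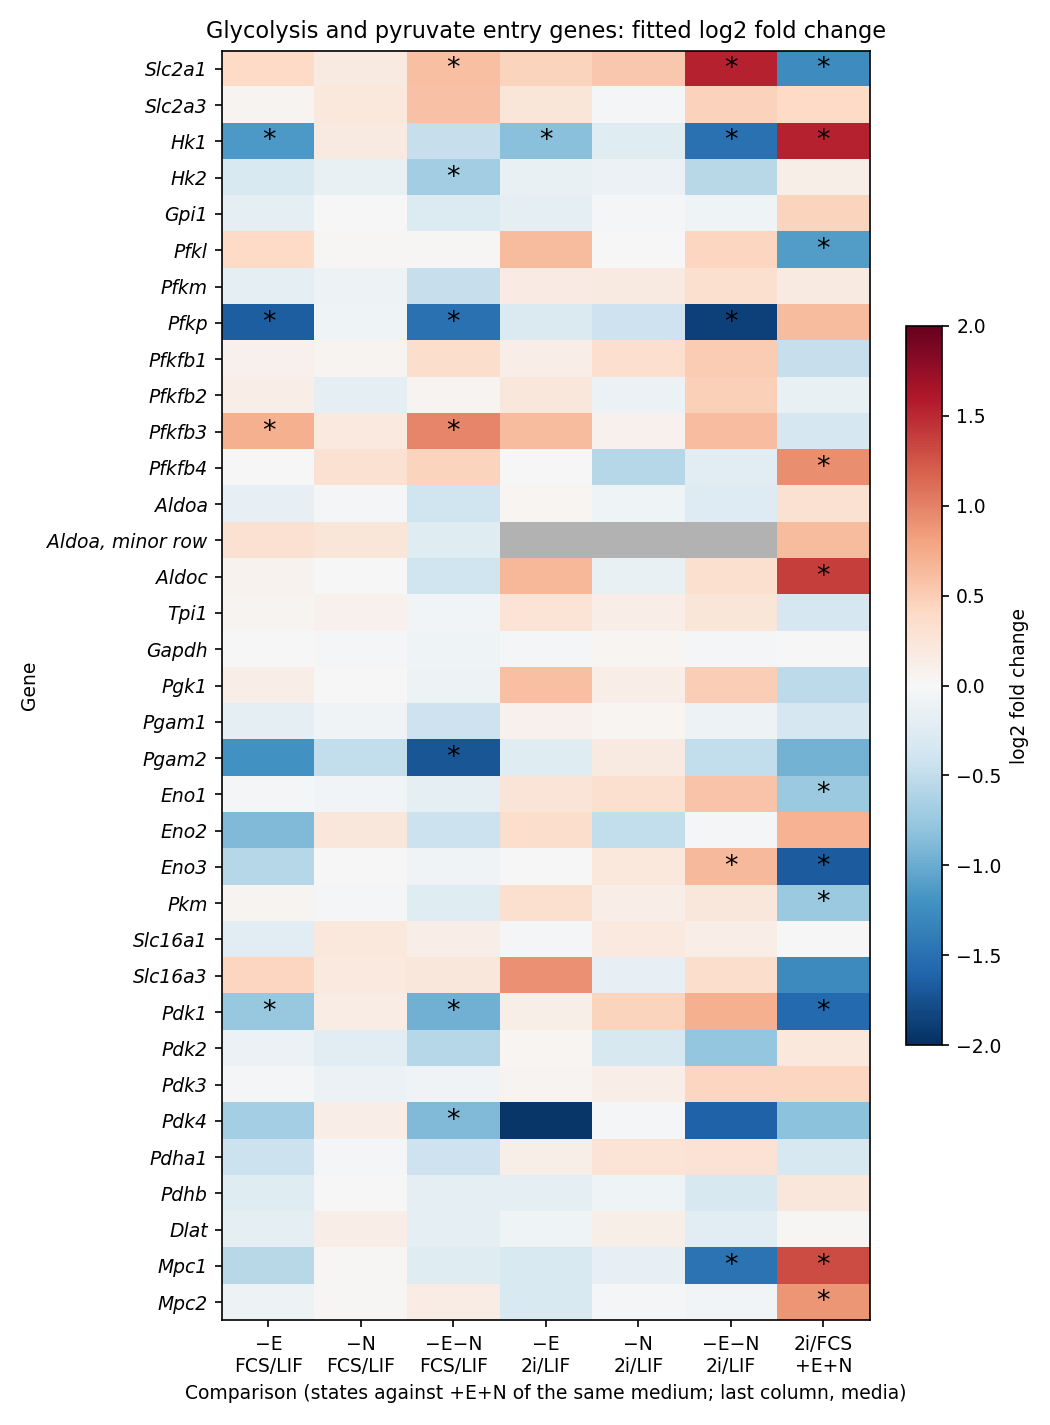
Fitted log2 fold change of each of the 35 rows (vertical) in 7 comparisons (horizontal), from blue (lower) to red (higher), with an asterisk where the call was made and grey where a row did not pass the filter. Among the calls in the −E−N columns the lowest values were those of Pgam2 in FCS/LIF (−1.71) and Pfkp in 2i/LIF (−1.87), and the −N columns held 0 asterisks.

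At the point of glucose entry, the ubiquitous transporter Slc2a1 was higher in −E−N cells in both media. In FCS/LIF it stood at 368 and 442 CPM in the +E+N libraries and at 567 and 679 in the −E−N libraries. In 2i/LIF it stood at 122, 201 and 188 CPM in +E+N and at 297, 395 and 772 in −E−N, the last being the highest of the 12 libraries in that medium. Groups did not overlap in either medium. The log2 fold change was 0.60 ± 0.11 in FCS/LIF (SE; adjusted p = 0.00238) and 1.54 ± 0.35 in 2i/LIF (adjusted p = 0.00394), in edgeR's quasi-likelihood fit, Benjamini-Hochberg adjusted. Without the libraries numbered 1 the 2i/LIF value was 1.60 (edgeR adjusted p = 0.00138), and the call was lost when any of the +E+N libraries or −E−N library 3 was left out, and by limma with a pseudocount of 1 TPM (1.04 to 1.80 over all alternatives, highest edgeR adjusted p = 0.0177). In FCS/LIF it was lost without +E+N library 1 or −E−N library 2 (0.46 to 0.76, highest edgeR adjusted p = 0.0231). The high-affinity transporter Slc2a3 averaged 892 ± 27.4 CPM in +E+N and 1354 ± 49.8 in −E−N in FCS/LIF (SD, n = 2), which at a log2 fold change of 0.58 ± 0.07 lay just under the fold limit of 0.585 on that scale. In 2i/LIF Slc2a3 spanned 1008 to 1316 CPM in +E+N and 1039 to 2351 in −E−N, and the groups overlapped.

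Hk1, the hexokinase of most tissues (chr10:62268855-62379908, minus strand, mm10), was lower after Esrrb withdrawal in both media. In FCS/LIF it stood at 47.4 and 51.3 CPM in +E+N and at 21.8 and 23.1 in −E (log2 fold change −1.16 ± 0.07, SE; edgeR adjusted p = 2.5e-05). In 2i/LIF the +E+N libraries held 153, 141 and 134 CPM and the −E libraries 79.5, 92.2 and 68.3 (−0.83 ± 0.10; edgeR adjusted p = 0.000694). No −E library reached the lowest +E+N library of its medium. Without the libraries numbered 1 the latter became −0.79 with an edgeR adjusted p of 0.0122, and the call was lost. The −N libraries stood at 55.2 and 57.6 CPM in FCS/LIF and at 125, 112 and 128 in 2i/LIF, and were not called against +E+N in either medium.

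In −E−N cells Hk1 was lower than in +E+N in both media, but by different amounts. In FCS/LIF the −E−N libraries held 35.9 and 37.0 CPM, between those of −E and +E+N (−0.46 ± 0.07 against +E+N; edgeR adjusted p = 0.000739, under the fold limit). In 2i/LIF they held 53.8, 51.1 and 45.5 CPM, below every −E library (−1.495 ± 0.10 against +E+N; edgeR adjusted p = 5.5e-07). The response to −E−N was smaller by 1.07 ± 0.15 on the log2 scale in FCS/LIF than in 2i/LIF (edgeR adjusted p = 7.0e-05). Against −N, the cells that differ from −E−N by Dox alone, Hk1 was lower in both media (−0.63 ± 0.07 and −1.25 ± 0.10; edgeR adjusted p = 0.000301 and 1.6e-05). Hk2, the inducible hexokinase and the more abundant of the pair, stood at 309 and 309 CPM in +E+N and at 199 and 186 in −E−N in FCS/LIF (−0.70 ± 0.05; edgeR adjusted p = 1.9e-05). In 2i/LIF Hk2 stood at 311, 358 and 333 CPM and at 231, 237 and 209, below the fold limit at −0.55 ± 0.10 (edgeR adjusted p = 0.000880) and called at −0.62 without the libraries numbered 1.

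**Figure D3:**
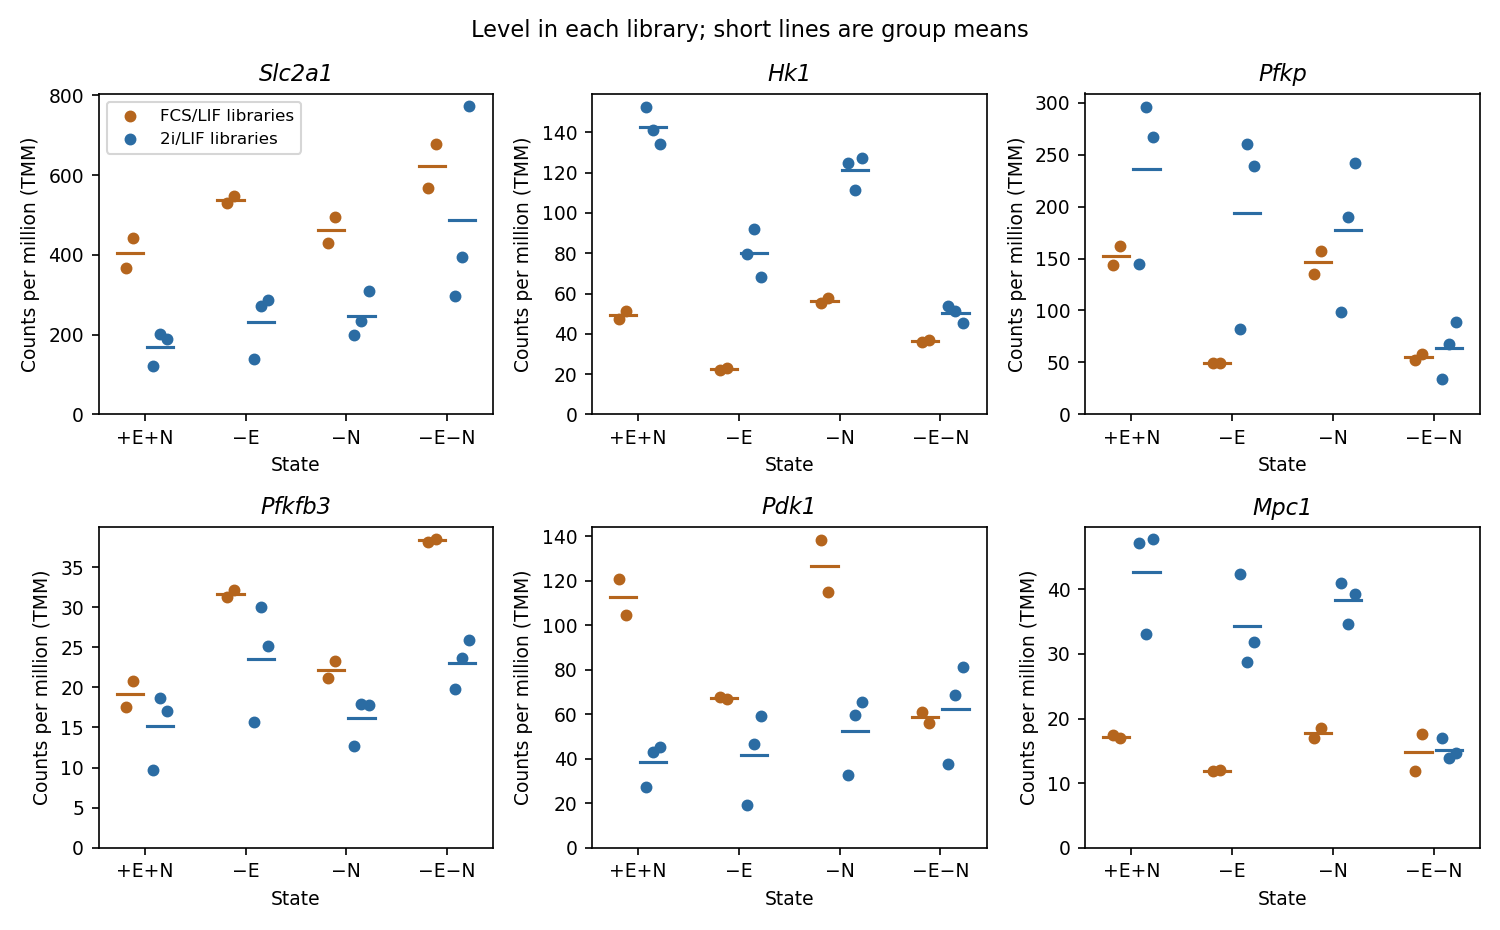
CPM of 6 members (one panel each, linear axes from 0) by state, with a point per library (FCS/LIF brown, 2 per state; 2i/LIF blue, 3 per state) and a short line at each group mean. Hk1 and Mpc1 began higher in 2i/LIF and met the FCS/LIF libraries more closely in −E−N (Mpc1 11.9 to 17.6 against 13.9 to 17.1), whereas Slc2a1 and Pdk1 began lower in 2i/LIF.

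At the committed step, Pfkp (chr13:6579768-6648777, minus strand, mm10) fell the furthest of the called members in −E−N of 2i/LIF and in −E of FCS/LIF. Its FCS/LIF libraries held 144 and 162 CPM for +E+N, 49.0 and 49.4 for −E cells, 135 and 158 for −N cells and 52.0 and 57.8 for −E−N cells. The 2 libraries with Esrrb and the 2 with Esrrb but without Nr5a2 overlapped, and all 4 lay above every library without Esrrb. The log2 fold changes were −1.65 ± 0.09 for −E and −1.496 ± 0.09 for −E−N (SE; edgeR adjusted p = 2.2e-05 and 8.1e-06), and −1.41 ± 0.09 for −E−N against −N (edgeR adjusted p = 2.4e-05).

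In 2i/LIF Pfkp held 145, 296 and 267 CPM in +E+N and 82.3, 260 and 239 in −E, groups that overlapped (−0.28 ± 0.45; edgeR adjusted p = 0.781). The −E−N libraries held 34.1, 68.0 and 89.2 CPM, below every +E+N library (−1.87 ± 0.47; edgeR adjusted p = 0.00689). By replicate number the difference between −E−N and +E+N was −2.09, −2.12 and −1.58 on the log2 scale. The numbers were not taken to pair these states. Without the libraries numbered 1 the fit gave −1.83 (edgeR adjusted p = 3.1e-05). The call was lost when −E−N library 1 or 2, +E+N library 2 or 3 or −N library 2 was left out (−2.20 to −1.57 over all alternatives, highest edgeR adjusted p = 0.0275). The response to −E was not shown to differ between media (log2 difference −1.35 ± 0.62; edgeR adjusted p = 0.270), but without the libraries numbered 1 it was −1.45 with an edgeR adjusted p of 0.000950.

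The other phosphofructokinase subunits had smaller fold changes in −E−N. Pfkl, the liver form, was not called in −E, −N or −E−N in FCS/LIF, where it ran from 251 to 367 CPM. In 2i/LIF Pfkl held 78.7, 157 and 134 CPM in +E+N, 131, 232 and 212 in −E and 119, 171 and 200.3 in −E−N. The −E and +E+N libraries overlapped, and the change was not called (0.64 ± 0.26; edgeR adjusted p = 0.191) except with the replicate number as a term (0.65; edgeR adjusted p = 0.00161). Pfkm, the muscle form, stood at 35.8 and 34.9 CPM in +E+N and at 27.7 and 24.5 in −E−N in FCS/LIF, and at 39.2, 38.8 and 41.6 and at 47.2, 52.1 and 49.2 in 2i/LIF. It was thus lower in one medium and higher in the other, by less than the fold limit in each, and the responses differed by −0.75 ± 0.11 (FCS/LIF minus 2i/LIF, log2; edgeR adjusted p = 9.6e-05). The 2i/LIF −N libraries of Pfkm held 47.4, 43.5 and 44.9 CPM, above every +E+N library and overlapping those of −E−N. Among the bifunctional enzymes that set fructose 2,6-bisphosphate, the activator of phosphofructokinase, Pfkfb3 rose in FCS/LIF. It stood at 17.6 and 20.7 CPM for +E+N, 31.2 and 32.1 for −E cells, 21.2 and 23.2 for −N cells and 38.2 and 38.6 for −E−N cells, with no overlap between libraries with and without Esrrb. Its log2 fold change was 0.70 ± 0.09 in −E and 0.98 ± 0.09 in −E−N (edgeR adjusted p = 0.00116 and 5.8e-05), and 0.79 ± 0.09 for −E−N against −N (edgeR adjusted p = 0.000393). The Pfkfb3 call in −E was lost without −E library 2 (edgeR adjusted p = 0.0153). In 2i/LIF Pfkfb3 held 9.70, 18.7 and 17.1 CPM in +E+N and 19.8, 23.6 and 25.9 in −E−N, and was not called (0.62 ± 0.26; edgeR adjusted p = 0.0718). Pfkfb2 held 9.04, 8.31 and 7.57 CPM in −N and 12.7, 12.5 and 11.97 in −E−N in 2i/LIF, a call against −N (0.60 ± 0.12; edgeR adjusted p = 0.00359) that was lost in 6 of 17 alternatives, one of them without the libraries numbered 1 (highest edgeR adjusted p = 0.0195). Pfkfb1 and Pfkfb4 were not called in any comparison of states, at 5.61 to 11.9 and 2.07 to 5.05 CPM.

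Since both hexokinase and phosphofructokinase have paralogues that moved unequally, their make-up was compared as each paralogue's share of its family's TPM. Hk1 made up 12.3% ± 0.28 of the Hk1 and Hk2 sum in +E+N and 7.35% ± 0.66 in −E cells in FCS/LIF (SD, n = 2), and 14% ± 0.79 in −E−N. In 2i/LIF it made up 27.6% ± 2.9 in +E+N, 18.5% ± 1.3 for −E cells and 16.1% ± 0.23 for −E−N cells (SD, n = 3). Pfkp went from 28.0% ± 2.2 of the 3 subunits to 12.8% ± 1.9 in −E−N in FCS/LIF, and from 51.8% ± 1.7 to 16.9% ± 4.4 in 2i/LIF, where Pfkl went from 33.3% ± 2.7 to 59.1% ± 0.90. The Slc2a1 share of the Slc2a1 and Slc2a3 sum was 35.4% ± 2.3 and 35.9% ± 2.1 in FCS/LIF, and went from 14.9% ± 1.8 to 26.8% ± 1.5 in 2i/LIF. The 2i/LIF groups did not overlap for any of these 3 genes. An exact two-sided permutation test of −E−N against +E+N gave p = 0.1 for each of them in 2i/LIF, the smallest that 3 against 3 libraries allow, and 2 against 2 cannot go below 0.333, so no share could pass 0.05 (adjusted p = 0.48 over the 48 shares tested in 9 families).

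**Figure D4:**
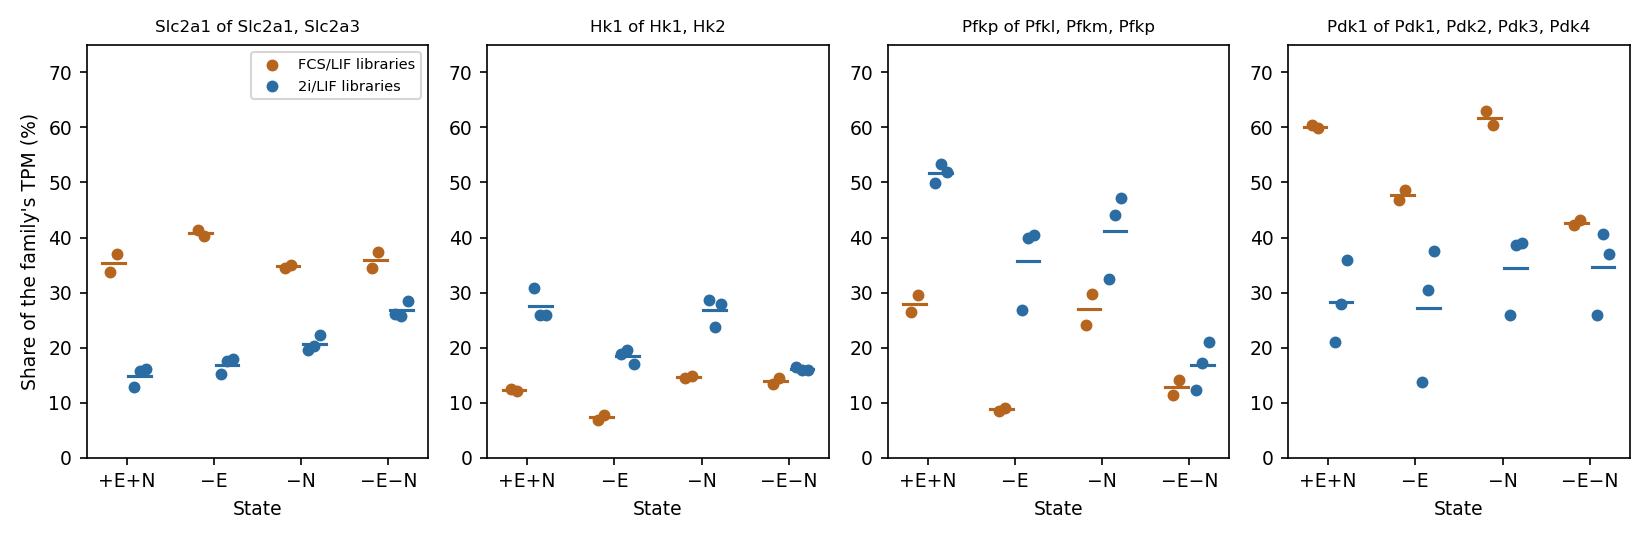
Share (%) of its family's summed TPM held by Slc2a1, Hk1, Pfkp and Pdk1 (one panel each, common axis from 0) by state, with a point per library (FCS/LIF brown, 2i/LIF blue) and a line at the group mean. The Pfkp share stood between 50.0% and 53.4% in the 3 +E+N libraries of 2i/LIF and between 12.3% and 21.0% in the 3 −E−N libraries.

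With no replicate block and no library left out, the calls against +E+N from aldolase to pyruvate kinase fell on isoforms of low abundance. Pgam2, the muscle phosphoglycerate mutase, stood at 1.99 and 1.72 CPM in +E+N and at 0.421 and 0.717 in −E−N in FCS/LIF, which is 76 and 75 counts against 16 and 29 (log2 fold change −1.71 ± 0.29, SE; edgeR adjusted p = 0.00136). It made up 0.429% ± 0.040 of the Pgam1 and Pgam2 sum in the +E+N cells there, with the rest from Pgam1. Without −E−N library 1 the Pgam2 call was lost (edgeR adjusted p = 0.0109). Eno3, the muscle enolase, stood at 15.9, 11.6 and 14.6 CPM in +E+N and at 24.7, 20.7 and 19.8 in −E−N in 2i/LIF, without overlap (0.64 ± 0.15; edgeR adjusted p = 0.00518). The call was lost without +E+N library 2 or 3 or −E−N library 1 or 2 (0.52 to 0.73 over all alternatives, highest edgeR adjusted p = 0.0272). In FCS/LIF Eno3 held 44.6 and 44.6 CPM in +E+N and 30.4 and 30.4 in −E (−0.57 ± 0.07; edgeR adjusted p = 0.00103, under the fold limit).

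Eno1, the abundant enolase, held 2329 and 2158 CPM in +E+N and 2029 and 1967 in −E−N in FCS/LIF, and 1254, 1406 and 1358 and then 1755, 1935 and 2243 in 2i/LIF. The 2i/LIF −N libraries held 1695, 1643 and 1723 CPM, above every +E+N library and below every −E−N library. The responses to −E−N differed between media by −0.73 ± 0.13 (FCS/LIF minus 2i/LIF, log2; edgeR adjusted p = 0.000482). The near-identical copy Eno1b received between 36.4% and 45.4% of the counts of the pair, a split made by estimation, and with the 2 summed the difference was −0.73 (−0.735 before rounding; edgeR adjusted p = 0.000255). Pkm, pyruvate kinase, held 3660 and 3473 CPM in +E+N and 3292 and 2835 in −E−N in FCS/LIF, and 2069, 2308 and 2041 and then 2353, 2557 and 2544 in 2i/LIF. Its responses differed by −0.44 ± 0.11 (edgeR adjusted p = 0.00797), a call lost in 13 of 25 alternatives. Gpi1, Aldoa, Aldoc, Tpi1, Gapdh, Pgk1, Pgam1 and Eno2 were not called in −E, −N or −E−N against +E+N in either medium by that fit with no replicate block. Reads of Gapdh, Pgk1 and Pgam1 may also be shared with processed copies in the genome, which leaves their counts less certain.

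At the branch between lactate and mitochondrial oxidation, Pdk1, the pyruvate dehydrogenase kinase that hypoxia induces (chr2:71873224-71903858, plus strand, mm10), fell with Esrrb withdrawal in FCS/LIF. Its libraries held 121 and 105 CPM for +E+N, 68.0 and 66.7 for −E cells, 138 and 115 for −N cells and 61.2 and 56.2 for −E−N cells. All 4 libraries with Esrrb lay above all 4 without it. Leaving out either −E library ended the call in −E (−0.86 to −0.60 over all alternatives, highest edgeR adjusted p = 0.0223). The log2 fold changes were −0.76 ± 0.10 for −E, −0.96 ± 0.10 for −E−N and −1.11 ± 0.10 for −E−N against −N (SE; edgeR adjusted p = 0.00116, 0.000104 and 0.000112). The Pdk1 share of the 4 kinases went from 60.1% ± 0.41 in +E+N to 47.8% ± 1.3 for −E and 42.7% ± 0.62 for −E−N cells (SD, n = 2), with that of Pdk3 going from 33.8% ± 0.64 to 50.3% ± 1.9 in −E−N.

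In 2i/LIF Pdk1 was not called lower. It held 27.4, 43.0 and 45.3 CPM in +E+N and 37.7, 68.8 and 81.2 in −E−N, groups that overlapped (0.71 ± 0.39; edgeR adjusted p = 0.162). The −N libraries held 32.9, 59.7 and 65.3 CPM and overlapped those of each of these states. By replicate number the −E−N library was higher than the +E+N library by 0.46, 0.68 and 0.84 on the log2 scale. The numbers were not taken to pair these states, so these differences add no support to the overlapping groups. Without the libraries numbered 1 the call was made at 0.78 (edgeR adjusted p = 0.00118). The responses to −E−N differed between media by −1.64 ± 0.52 (edgeR adjusted p = 0.0312, past 0.01), and by −1.71 without those libraries (edgeR adjusted p = 1.6e-05). Pdk4, the kinase that fasting induces, was scarce. In FCS/LIF it stood at 2.746 and 3.395 CPM in +E+N and at 1.55 and 1.81 in −E−N (−0.89 ± 0.21; edgeR adjusted p = 0.00711), a call that DESeq2 did not make and that was lost in 7 of 12 alternatives. In 2i/LIF it stood at 1.45, 1.52 and 2.23 CPM in +E+N and at 0.250, 0.288 and 0.797 in −E, on 7 to 23 counts, and did not pass (−1.94 ± 0.50; edgeR adjusted p = 0.0386). Pdk2 and Pdk3 were not called in either medium, though without the libraries numbered 1 Pdk2 was called in −E−N of 2i/LIF (−0.94).

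Of the 3 members that belong to the pyruvate dehydrogenase complex, Pdha1, which encodes the E1 alpha subunit that the kinases phosphorylate, responded differently in the media. In FCS/LIF it held 391 and 360 CPM in +E+N, 284 and 280 in −E and 289 and 279 in −E−N. In 2i/LIF it held 323, 280 and 294 CPM in +E+N, 334, 306 and 331 in −E and 369, 349 and 368 in −E−N. Pdha1 was thus lower without Esrrb in FCS/LIF (−0.43 ± 0.06 in −E and −0.42 ± 0.06 in −E−N; edgeR adjusted p = 0.00131 and 0.000464, under the fold limit) and not in 2i/LIF (0.12 ± 0.06 and 0.29 ± 0.06; edgeR adjusted p = 0.332 and 0.00287). The difference between media was −0.53 ± 0.09 for −E and −0.68 ± 0.09 for −E−N (edgeR adjusted p = 0.00402 and 5.6e-05), and the first was lost in 6 of 25 alternatives, each leaving out 1 library. Pdhb and Dlat, the E1 beta and E2 subunits, ran from 110 to 159 and from 70.2 to 97.5 CPM and were not called.

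Mpc1, one subunit of the mitochondrial pyruvate carrier, fell in −E−N cells of 2i/LIF. Its libraries held 47.1, 33.0 and 47.8 CPM for +E+N, 42.3, 28.8 and 31.9 for −E cells, 40.9, 34.7 and 39.3 for −N cells and 17.1, 13.9 and 14.6 for −E−N cells. Every −E−N library lay below every other 2i/LIF library. The log2 fold change was −1.48 ± 0.17 against +E+N and −1.31 ± 0.17 against −N (SE; edgeR adjusted p = 2.5e-05 and 0.000269), and −1.49 without the libraries numbered 1. In FCS/LIF Mpc1 held 17.5 and 16.9 CPM in +E+N and 11.9 and 17.6 in −E−N, which overlapped (−0.24 ± 0.16; edgeR adjusted p = 0.253), and the responses differed by 1.27 ± 0.26 (edgeR adjusted p = 0.00191). That difference lost its call without either +E+N library or −E−N library 2 of FCS/LIF (0.93 to 1.50 over all alternatives, highest edgeR adjusted p = 0.0278). Its partner Mpc2 held 20.1 to 21.7 CPM in −E−N and 20.4 to 22.5 in +E+N in 2i/LIF and was not called in either medium. The lactate exporters Slc16a1 and Slc16a3 were not called for any state, and Slc16a3 in 2i/LIF had the spread by replicate number given above.

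Set against the −N state, which shares the NrKO line and differs only by Dox, −E−N called 1 row higher and 4 lower in FCS/LIF (6.57% and 3.49% of all genes) and 1 higher and 2 lower in 2i/LIF (3.39% and 3.36%). The 5 in FCS/LIF were Pfkfb3, Hk1, Pfkp, Pdk1 and Pdk4 (1.68 ± 0.18 CPM against 3.41 ± 0.48 for the last; −1.02 ± 0.20, SE, edgeR adjusted p = 0.00600), and the 3 in 2i/LIF were Pfkfb2, Hk1 and Mpc1. The Pdk4 call was lost in 6 of 12 alternatives. In 2i/LIF the replicate numbers paired the libraries of −E with +E+N and of −E−N with −N, and blocking on the replicate number moved both counts. For −E the replicate block gave 5 calls in place of 1, while the share of all genes called went from 1.55% to 4.15%. The 5 were Hk1 (−0.84) and Pdk4 (−2.02) lower and Pfkl (0.65), Pfkfb3 (0.64) and Pgk1 (0.59) higher. For −E−N against −N it gave 6 in place of 3, with all genes going from 6.76% to 11.3%, adding Slc2a1 (0.93), Pfkp (−1.46) and Pdk4 (−1.65) to Hk1, Mpc1 and Pfkfb2 (edgeR adjusted p between 6.8e-07 and 0.00142 for the 6).

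Whether the effect of Dox withdrawal differed with and without Nr5a2 was tested as an interaction, with a limit of 0.01 on the adjusted p and none on the fold. No member passed by edgeR in either medium, where 0% and 0.032% of all genes were higher and lower in FCS/LIF, and 0.0975% and 0.209% in 2i/LIF. At an unadjusted p under 0.05 there were 8 rows in FCS/LIF and 6 in 2i/LIF. DESeq2 gave 0 and 1, the latter being Mpc1, whose interaction by edgeR was −1.003 ± 0.23 (adjusted p = 0.0587). With the replicate block, edgeR called 2 members lower in 2i/LIF, Mpc1 (−1.005; adjusted p = 0.000998) and Pfkp (−1.09; adjusted p = 0.00287), where the share of all genes went from 0.307% to 2.26%. For Hk1 in FCS/LIF, whose fall with Dox withdrawal was −1.16 in cells with Nr5a2 and −0.63 without, the interaction was 0.53 ± 0.10 (edgeR adjusted p = 0.164).

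The response to −E differed between media for 1 member, Pdha1, lower in FCS/LIF, with 0.588% and 0.471% of the 16147 genes tested in both media passing in the higher and lower direction. The response to −N differed for 0 members by edgeR, DESeq2 and limma (0.409% and 0.334% of all genes; 5 rows at an unadjusted p under 0.05). For −E−N, Hk1 and Mpc1 had the higher value in FCS/LIF and Pfkm, Eno1, Pkm and Pdha1 the lower, 2 and 4 of 35 rows, against 7.3% and 5.93% of all genes.

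**Figure D5:**
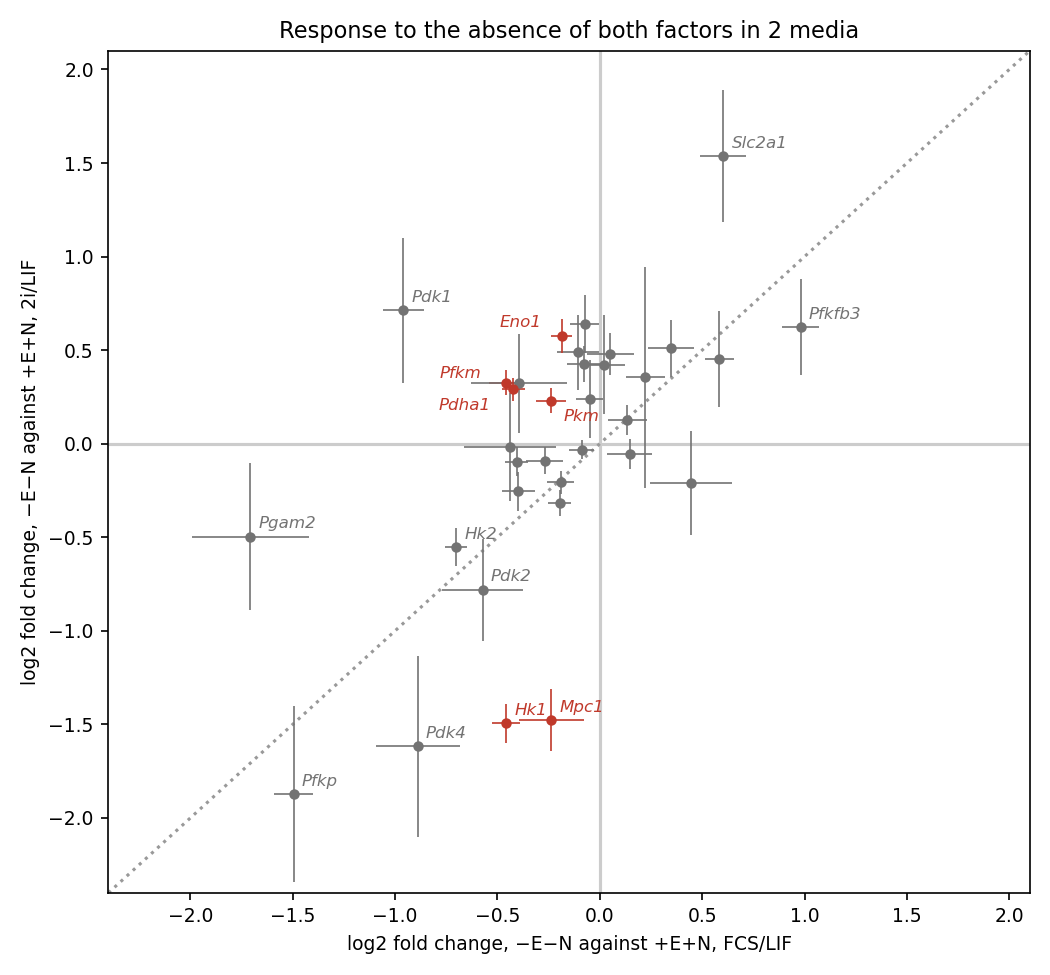
Log2 fold change of −E−N against +E+N in FCS/LIF (horizontal) and 2i/LIF (vertical) for the 34 rows tested in each, with bars of 1 SE, a dotted line where both are equal, and in red the 6 members whose responses passed the test of the difference. Hk1 and Mpc1 lie below the line with values near −1.5 in 2i/LIF, and Pfkm, Eno1, Pkm and Pdha1 lie above it, negative in FCS/LIF and positive in 2i/LIF.

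Between the media themselves, in +E+N cells, 5 of the 35 rows were higher in 2i/LIF and 6 lower, against 17.2% and 17.5% of all genes, a share near that of the genes at large. Hk1 (1.53 ± 0.11, log2, SE), Aldoc (1.39 ± 0.31), Mpc1 (1.31 ± 0.19), Pfkfb4 (0.93 ± 0.28) and Mpc2 (0.89 ± 0.09) were higher. Transcripts of both subunits of the pyruvate carrier were thus more abundant in 2i/LIF, Mpc2 at 22.5, 20.4 and 22.3 CPM against 11.98 and 11.49. Eno3 (−1.66 ± 0.14), Pdk1 (−1.55 ± 0.36), Slc2a1 (−1.25 ± 0.33), Pfkl (−1.12 ± 0.25), Eno1 (−0.74 ± 0.09) and Pkm (−0.74 ± 0.08) were lower. Pfkl stood at 281 and 253 CPM in FCS/LIF and at 78.7, 157 and 134 in 2i/LIF, without overlap. Aldoc, a brain aldolase, stood at 7.85 and 4.70 CPM against 11.9, 20.1 and 17.2. Without the libraries numbered 1 there were 13 calls (34.7% of all genes with or without them). The Pfkfb4 call was lost in 17 of 25 alternatives (highest edgeR adjusted p = 0.0699). Leaving out FCS/LIF +E+N library 1 ended the calls of Pdk1 and Pfkl, leaving out library 2 those of Aldoc and Slc2a1, and leaving out 2i/LIF +E+N library 1 that of Slc2a1 (highest edgeR adjusted p = 0.0126, 0.0114, 0.0281 and 0.0324 for Pdk1, Pfkl, Aldoc and Slc2a1). The edgeR adjusted p of the 11 calls ran from 3.8e-09 for Hk1 to 0.00929 for Pfkfb4, and with Eno1b added to Eno1 its difference was −0.60 (−0.605 before rounding; edgeR adjusted p = 7.2e-06).

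Around these genes, a further list of 39 genes of neighbouring reactions (lactate dehydrogenases, gluconeogenesis, glycogen and pentose phosphate enzymes, pyruvate carboxylase and phosphatases) had 28 rows tested in FCS/LIF, of which 0 were higher and 3 lower in −E−N, and 27 in 2i/LIF, of which 1 was higher and 6 lower. Of all genes, 12.4% were called higher and 6.4% lower in FCS/LIF, and 9.06% and 9.56% in 2i/LIF. Ldhb, the lactate dehydrogenase subunit that favours pyruvate formation, went from a mean of 517 to 76.3 CPM in FCS/LIF and from 104 to 25.2 in 2i/LIF (log2 fold change −2.78 ± 0.06 and −2.03 ± 0.19, SE; edgeR adjusted p = 5.2e-08 and 7.0e-06). Ldha, its counterpart, was called in 2i/LIF alone, from 556 to 928 CPM (0.75 ± 0.19; edgeR adjusted p = 0.00783). Pck2, mitochondrial phosphoenolpyruvate carboxykinase (−2.52 ± 0.23 and −1.60 ± 0.22), and the intracellular transporter Slc2a8 (−0.68 ± 0.14 and −1.12 ± 0.13) were lower in both media. Pcx, Pgm1 and Pdp1 were lower in 2i/LIF (−0.60, −1.04 and −0.84). The list had a median of −0.24 for FCS/LIF cells and −0.15 for 2i/LIF cells, where that of all genes was 0 and 0.010.

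Because Slc2a1, Pfkfb3 and Pdk1 are known targets of hypoxia signalling, 15 hypoxia response genes outside glycolysis were read beside them. In −E−N of FCS/LIF, 4 of the 15 were higher (Adm, Ndrg1, Egln1 and P4ha1, by 2.29, 1.49, 0.74 and 0.71 on the log2 scale) and 2 lower (Kdm3a and Mxi1, by −1.19 and −0.87), with a median of 0.19. Of all genes there, 12.4% were higher and 6.4% lower, with a median of 0. In 2i/LIF 13 were tested and 0 were called by edgeR in −E−N, with a median of 0.48. Of all genes there, 9.06% were higher and 9.56% lower, with a median of 0.010. Slc2a1 and Pfkfb3 were higher and Pdk1 lower in −E−N of FCS/LIF. In 2i/LIF the 3 were higher in −E−N than in +E+N at each replicate number, though the numbers were not taken to pair these states. The groups overlapped for Pdk1, and Slc2a1 alone was called when all libraries were used. The sum of the 15 genes overlapped between +E+N and −E−N in each medium (592 to 674 and 581 to 628 CPM in FCS/LIF, 526 to 854 and 602 to 896 in 2i/LIF), and their part in the members' changes was not tested.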

How the data were processed

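RNA-seq of 20 libraries of EKOiE and EKOiE NrKO ESCs was used, 8 in FCS/LIF and 12 in 2i/LIF, and ChIP-seq samples were not analysed here. Reads were paired-end and strand-specific. STAR alignment to mm10 and RSEM quantification were run by the authors, whose deposited table of estimated counts (RSEM expected counts) per gene carries no scaling between libraries. A second deposited table from the same RSEM run gives TPM. Versions of these tools are not given in the sources used here. Both tables are used as deposited, with counts rounded to whole numbers and spike-in rows left out. Members were matched by symbol and placed with GENCODE vM21. Members and gene lists were chosen with earlier results of these data known. Genes with at least 20 counts in all libraries of at least 1 state were tested with edgeR (version 4.0.16) by its quasi-likelihood test with TMM scaling, each medium in a fit of its own and comparisons between media in a fit of all 20 libraries, and called at an adjusted p under 0.01 and a fold change over 1.5. The study used the same limits with DESeq2. Here DESeq2 (1.42.0) is an alternative, beside limma (3.58.1) with pseudocounts of 1 or 0.1 TPM before the log2, no filter, DESeq2 size factors, a replicate block, all libraries in one fit and leaving out each library. The fits were tested on simulated data with the same spread for every gene and no effect of replicate number. Of 200 changed genes, −E−N against +E+N recovered 175 in FCS/LIF with 0 false calls. In 2i/LIF it recovered 182 with 2 false calls. The simulation does not show how the fits behave at the spread of the real libraries. Libraries of a group differed by more than sampling noise (chi-square per degree of freedom 4.40 to 29.4), and the study describes the replicates as independent experiments, without saying what was repeated.

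Pairing by replicate number was checked from the correlation, over genes, of the deviations of same-numbered libraries from their group means. In 2i/LIF it ran from 0.241 to 0.531 between +E+N and −E, from 0.207 to 0.632 between +E+N and −N, from 0.200 to 0.483 between −N and −E−N and from −0.00273 to 0.412 between +E+N and −E−N, so the numbers were taken to pair the first 3 of these only. It was 0.182 to 0.466 between −E and −N and 0.135 to 0.501 between −E and −E−N. In FCS/LIF it was 0.0921 between +E+N and −E and 0.127 to 0.485 for the other pairs of states. The FCS/LIF counts come from fits with no block. With it, −E gave 6 calls in place of 4 (8.29% of all genes in place of 5.76%), and −E−N against −N gave 6 in place of 5 (13.9% in place of 10.1%). All members are accounted for. Values are given per library for members called in −E, −N or −E−N, for those whose responses differed between media, and for the members with the largest differences between media; the others are given by range.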

Additional observations from a re-analysis of the deposited data

Results flagged for a closer look

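The responses of 6 members differed between FCS/LIF and 2i/LIF by a test of the difference itself (edgeR quasi-likelihood, Benjamini-Hochberg adjusted, values as FCS/LIF minus 2i/LIF on the log2 scale). Of all genes, 1.06% passed that test for −E and 13.2% for −E−N. For −E the member was Pdha1, at −0.53 (adjusted p = 0.00402). For −E−N these were Hk1 at 1.07 (adjusted p = 7.0e-05), Mpc1 at 1.27 (adjusted p = 0.00191), Pfkm at −0.75 (adjusted p = 9.6e-05), Eno1 at −0.73 (adjusted p = 0.000482), Pkm at −0.44 (adjusted p = 0.00797) and Pdha1 at −0.68 (adjusted p = 5.6e-05). The medium and the batch of culture cannot be told apart, and the Esrrb row of the RNA counts, which does not measure the protein, fell less in 2i/LIF (difference between media −1.70 for −E and −1.39 for −E−N). Its part in these differences was not tested.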

How the results depend on the processing

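Of the 43 member calls, recomputed under 795 settings in all, 708 kept direction and side of the threshold, 87 fell short of it and 0 changed sign. Counts of members called moved as follows. With all 20 libraries in one fit, −E in FCS/LIF gave 1 in place of 4, −E−N gave 3 in place of 7, −E−N against −N gave 1 in place of 5, and −E in 2i/LIF gave 2 in place of 1. The shares of all genes called went from 5.76% to 2.76%, 18.8% to 14.3%, 10.1% to 5.7% and 1.55% to 2.17%. Without the fold limit the FCS/LIF counts were 7, 13 and 11 in the same order, and −E−N in 2i/LIF gave 12 in place of 5. The share of all genes was not computed without that limit. Both limma settings gave 3 for −E−N against −N in FCS/LIF (7.2% and 7.69% of all genes). DESeq2 gave 2 for −E and 1 for the interaction in 2i/LIF (3.11% and 2.11% of all genes). With no filter on low counts the interaction gave 2 in FCS/LIF and 1 in 2i/LIF, −E in 2i/LIF gave 2, and the differences between media gave 4 for −E and 12 for −E−N. In the same order 0.816%, 0.731%, 1.38%, 2.22% and 9.37% of all genes were called. With the 2i/LIF libraries numbered 1 left out, a setting chosen after seeing the data, −E gave 0 and −E−N 9 in 2i/LIF, and the difference between media gave 3 for −E (1%, 18.4% and 1.52% of all genes). On counts in place of TPM, the share of Pfkp differed by −18.1 percentage points in FCS/LIF in place of −15.1, and that of Pdk1 by −11.5 in place of −17.4. The causes were not tested.

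With the replicate block, 2i/LIF gave 5 calls for −E, 9 for −E−N, 6 for −E−N against −N and 2 for the interaction, and the differences between media gave 4 for −E and 10 for −E−N. The shares of all genes called rose too. In the same order they went from 1.55% to 4.15%, 18.6% to 22.9%, 6.76% to 11.3%, 0.307% to 2.26%, 1.06% to 4.51% and 13.2% to 22.9%. The replicate block moved no other count by over 1.5 times. The labels do not say what the numbers share.

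Leaving out 1 library at a time gave 2 to 4 calls for −E, 0 to 0 for −N, 5 to 7 for −E−N, 4 to 5 for −E−N against −N and 0 to 0 for the interaction in FCS/LIF. In 2i/LIF the ranges were 1 to 1, 0 to 0, 3 to 5, 2 to 3 and 0 to 0. Between media they were 8 to 11 for +E+N, and 0 to 1, 0 to 0 and 4 to 7 for the responses to −E, −N and −E−N. Shares of −E−N minus +E+N ran over −1.06 to 2.19 points for Slc2a1, 1.12 to 2.23 for Hk1, −16.7 to −13.5 for Pfkp, −1.52 to 3.88 for Slc16a3 and −17.8 to −17 for Pdk1 in FCS/LIF, and over 10.8 to 12.4, −12.3 to −9.78, −37 to −32.6, −8.02 to 13.2 and 2.72 to 10.6 in 2i/LIF. With 2 or 3 libraries per state, members of low count such as Pgam2 and Pdk4 are the least certain.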

Other observations

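Ldhb was among the genes with the largest changes near the pathway after Esrrb withdrawal alone. It went from a mean of 517 to 82.8 CPM in −E cells in FCS/LIF and from 104 to 10.8 in 2i/LIF (log2 fold change −2.66 ± 0.06 and −3.26 ± 0.21, SE; edgeR adjusted p = 8.2e-08 and 4.5e-06). Pck2 went from 25.3 to 6.08 CPM in −E cells in FCS/LIF (−2.08 ± 0.22; edgeR adjusted p = 0.000422). Between media in +E+N, 9 of the 29 neighbouring genes tested were higher in 2i/LIF and 3 lower, where 17.2% and 17.5% of all genes were called.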
